A study of Mus musculus with 4 samples.

Results

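The 10 genes described here (Cdx2, Gata2, Gata3, Elf5, Krt8, Krt18, Krt19, Tfap2c, Grhl2 and Ascl2) mark the trophectoderm, the outer layer of the blastocyst that founds the placenta, and the simple epithelia. They were taken by exact gene symbol in the platform annotation, which gave 22 probe sets of the 45037 on the array that are not controls. All 10 of the 18193 genes named alone on the array had at least 1 probe set. Signals came from 4 Affymetrix arrays of E14Tg2A.4, a subline of the E14 mouse embryonic stem cell line. The cells of 2 arrays had received BMP-2, a secreted growth factor whose receptors phosphorylate SMAD1 and SMAD5. The dose was 25 ng/ml for 1 h, and the other 2 arrays were of cells left untreated over that time. Both groups thus share 1 cell line, and separate cultures are not stated for the arrays of a group. The p-values therefore rest on a spread between samples that may be only technical.

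In the mouse embryo, YAP and TEAD4 switch on Cdx2 and Gata3 in outer cells, where CDX2 represses the pluripotency network. GATA2, GATA3, TFAP2C and ELF5 then maintain the trophoblast fate. Keratins 8, 18 and 19 form the first intermediate filaments of that epithelium. BMP signalling is known to promote trophoblast and surface ectoderm fates in stem cells over days, and GATA2 and GATA3 are known mediators of it, so the question here is what levels these genes had in untreated cells and after 1 h of the ligand.

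Signals are MAS5 intensities, a linear brightness per probe set, and the lower limit of the tested probe sets was a mean of 53.0. Of the 22 probe sets 14 lay above it, and these belong to 7 genes (Gata2, Krt8, Krt18, Krt19, Tfap2c, Grhl2 and Ascl2). The other 8 probe sets were too dim to be tested, and Cdx2, Gata3 and Elf5 had no other kind. Array medians ran from 81.8 to 94.9. On untreated replicate 2 the 3 probe sets of 18S ribosomal RNA read 3.94 to 6.11 times the highest of the other arrays. Its part in the values below was not tested. Of the 14 tested probe sets 12 kept their sign without that array, and 12 to 14 did without each of the others. Sizes moved as well, as given below for Gata2, Krt19 and Grhl2.

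All 9 stem cell markers examined (Pou5f1, Nanog, Sox2 and others) were above the limit. In the order of replicates 1 and 2, their signals summed to 98171 and 93585 on the untreated arrays and 98697 and 93537 on the treated ones. Of the 6 markers of differentiated trophoblast 3 had a probe set, and only Hand1, a factor of giant cells and mesoderm, passed the limit. Tpbpa, a spongiotrophoblast product, and Plac1, a placental surface protein, were below it. The 3 trophoblast markers summed to 224 and 263 untreated and to 232 and 247 treated. Of 8 fibroblast markers 6 were below the limit, and the 8 summed to 562 and 573 untreated and to 542 and 647 treated. The primitive endoderm, which also makes keratins 8, 18 and 19, was represented by 9 markers, 8 of them above the limit. They summed to 3108 and 3232 untreated and to 3512 and 3399 treated, a sum to which Lamb1 gave the largest share. Of the 8 tested, 7 were higher with BMP-2 and 1 lower, with a median of 0.12 log2. Over all 27022 tested probe sets 52.2% were above 0, with a median of 0.01. Of these, 0.0185% passed by limma and 3.07% had an unadjusted p under 0.05. None of the 8 markers passed, and 1 had such an unadjusted p. That was Sox7, a factor of the primitive endoderm named after its value was seen, which read 63.5 and 50.9 untreated and 111 and 135 treated (2.16-fold, unadjusted p = 0.0052, adjusted p = 1.00). The part of such cells in the keratin signals was not tested. In such bulk samples, fewer cells of a type and less RNA per cell cannot be told apart.

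After 1 h of BMP-2 none of the 14 tested probe sets passed an adjusted p of 0.05 by limma (0 of 14, and 0 at an unadjusted p under 0.05), where 0.0185% of all 27022 tested probe sets passed and 3.07% had such an unadjusted p. The adjusted p of each was 1.00, and the smallest unadjusted p was 0.079. Of the 14 log2 differences (BMP-2 minus untreated) 10 were above 0 and 4 below, with a median of 0.08, against a median of 0.01 and 52.2% above 0 over all tested probe sets. Several of the 14 read the same gene. Counted by gene, on the brightest tested probe set of each of the 7, 4 were above 0 and 3 below, with a median of 0.10. Treated and untreated signals did not overlap on 5 of the 14, which were 2 higher and 3 lower, where 28.4% of all tested probe sets showed no overlap. For 8 of the 14 the difference was smaller than its own SE. As the reference for a response in these cells, Id1, an early BMP target, read 3129 and 3007 untreated and 9738 and 9495 treated, a 3.14-fold rise (95% interval 2.80 to 3.51, adjusted p = 2.0e-05). The upper ends of 13 of the 14 intervals lay below 2-fold, and the exception was Krt19. On the brightest probe set of each of Id1, Id2 and Id3 the lowest lower end was 2.80-fold. The other Id2 probe sets gave 2.22-fold (interval 1.87 to 2.64, adjusted p = 0.0085) and, on the dim 1453596_at, 1.99-fold (1.21 to 3.28, adjusted p = 1.00), so a dim probe set of a gene that rose elsewhere also did not pass.

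**Figure D1:**
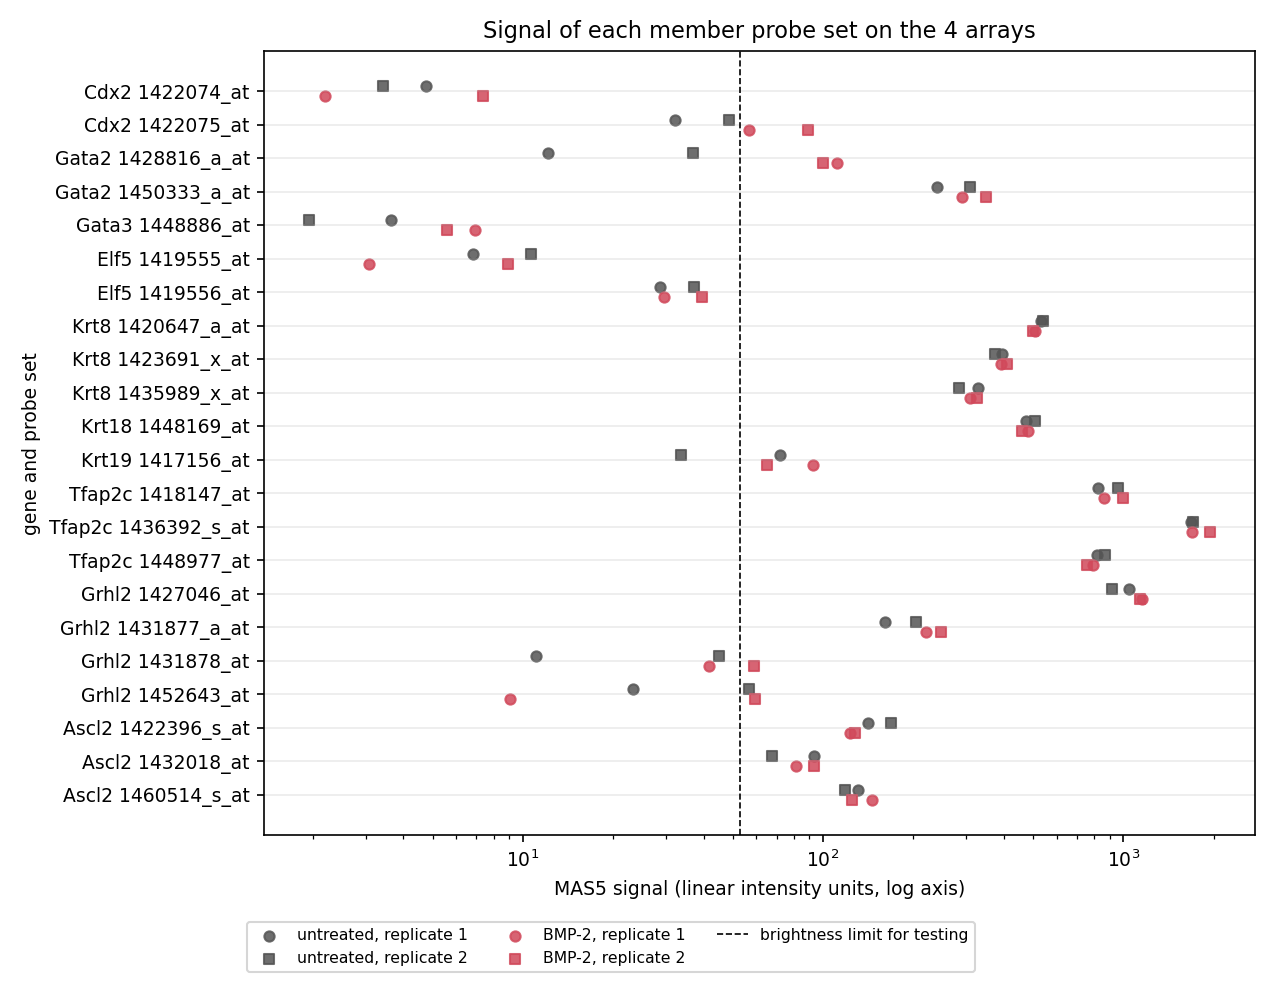
MAS5 signal (log axis) of each of the 22 probe sets on the 2 untreated arrays (grey) and the 2 BMP-2 arrays (red), circles for replicate 1 and squares for replicate 2, with the brightness limit of 53.0 as a dashed line. Probe sets of Krt8, Krt18 and Tfap2c sit at 284 or higher on every array, and those of Cdx2, Gata3 and Elf5 lie near or below the limit.

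Cdx2 encodes the homeodomain factor that specifies the trophectoderm. Its probe set 1422075_at lay just under the limit, at 32.2 and 48.7 on the untreated arrays and 56.5 and 88.8 on the treated ones. The treated arrays were the higher ones and the groups did not overlap, but the upper untreated and lower treated signals were close. The log2 difference was 0.84, with an interval of -0.21 to 1.88 in a fit that also took the dim probe sets (limma, unadjusted p = 0.10, adjusted p = 1.00). With signals raised to the limit the treated mean was 1.34-fold the untreated one. The other Cdx2 probe set, 1422074_at, read 4.76 and 3.43 untreated and 2.19 and 7.35 treated, where the groups overlapped and no level can be read.

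Gata3, the zinc finger factor that acts beside CDX2 in the trophectoderm, read 3.63 and 1.94 untreated and 6.94 and 5.59 treated on its only probe set. All 4 signals were far below the limit, so the lack of overlap carries no level and no fold is given. Elf5, an ETS factor of trophoblast stem cells whose promoter is known to be methylated in embryonic stem cells, read 28.6 and 37.3 untreated and 29.5 and 39.5 treated on probe set 1419556_at. The treated and untreated signals of equal replicate number were nearly alike. On probe set 1419555_at Elf5 read 6.80 and 10.6 untreated and 3.07 and 8.89 treated, also below the limit on every array.

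Gata2, the zinc finger factor that works with GATA3 in trophoblast and surface ectoderm, gave unlike values on its 2 probe sets. The bright one, 1450333_a_at, read 240 and 309 on the untreated arrays and 290 and 348 on the treated ones, which overlapped. Its log2 difference was 0.22 ± 0.19 (SE), or 1.17-fold (interval 0.874 to 1.56, limma adjusted p = 1.00). It ran from 0.04 without untreated replicate 1 to 0.41 without untreated replicate 2. The dim one, 1428816_a_at, read 12.2 and 37.0 untreated and 111 and 100.1 treated, so both treated arrays were above the limit and both untreated arrays below it. Its log2 difference was 2.31 ± 0.58 (SE) in the fit without a filter on dim probe sets (limma, interval 0.97 to 3.66, unadjusted p = 0.0042, adjusted p = 1.00). In that fit 3.72% of 45037 probe sets had an unadjusted p under 0.05, and this was the only 1 of the 22 that did. It did not pass an adjusted p of 0.05, where 0.00888% of probe sets did. Together with the Cdx2 and Gata3 probe sets above, it was among 3 of the 8 dim probe sets without overlap between the groups, where 29.4% of all 45037 showed none. With signals raised to the limit the treated mean was 1.99-fold the untreated one. The untreated arrays themselves lay 1.60 log2 apart. The difference between the 2 Gata2 probe sets was not tested, and the annotation does not say which Gata2 transcripts each one reads.

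RefSeq lists 2 start sites for Gata2, and the 250 bases before each are shown because its probe sets disagreed and the gene may be read from either start. Motifs searched on both strands were GGCGCC (bound by SMAD1 and SMAD5), CAGAC and GTCTAGAC (bound by SMADs), GGAATG (bound by TEAD factors), AGATAA (bound by GATA factors) and TATAAA, with capitals marking every match, and no base of the windows printed lay in 2 matches. Windows run 5′ to 3′ on the gene's strand and come from RefSeq for GRCm38.p6. The upstream Gata2 start is chr6:88193641-88193890 on the + strand, and the downstream one is chr6:88198414-88198663 on the + strand.
Gata2 upstream start: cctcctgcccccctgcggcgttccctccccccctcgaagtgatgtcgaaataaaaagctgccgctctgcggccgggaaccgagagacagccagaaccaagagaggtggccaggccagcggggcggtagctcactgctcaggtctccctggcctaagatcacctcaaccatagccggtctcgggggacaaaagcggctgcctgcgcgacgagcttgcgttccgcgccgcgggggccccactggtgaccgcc
Gata2 downstream start: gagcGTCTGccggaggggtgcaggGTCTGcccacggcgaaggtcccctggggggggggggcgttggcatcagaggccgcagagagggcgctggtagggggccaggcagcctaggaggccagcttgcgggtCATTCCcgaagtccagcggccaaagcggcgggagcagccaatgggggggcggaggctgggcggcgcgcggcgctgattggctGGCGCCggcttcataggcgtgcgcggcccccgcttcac
The upstream window holds none of the 6 motifs. The downstream window holds 1 GGCGCC that begins 38 bases before the start, 1 GGAATG on the reverse strand 120 bases before it and 2 CAGAC matches on the reverse strand. Among all 32851 promoter windows of 250 bases, GGCGCC occurs in 9.59%, GGAATG in 12.6% and CAGAC in 42.2%. AGATAA occurs in 9.99%, TATAAA in 12.4% and GTCTAGAC in 0.167%. A match is a stretch of letters and not a measured binding site.

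Windows were found for 7 of the 10 genes, 9 in all. The Cdx2 window, chr5:147307250-147307499 on the - strand, is shown because this gene heads the programme and its brighter probe set lay at the limit.
Cdx2: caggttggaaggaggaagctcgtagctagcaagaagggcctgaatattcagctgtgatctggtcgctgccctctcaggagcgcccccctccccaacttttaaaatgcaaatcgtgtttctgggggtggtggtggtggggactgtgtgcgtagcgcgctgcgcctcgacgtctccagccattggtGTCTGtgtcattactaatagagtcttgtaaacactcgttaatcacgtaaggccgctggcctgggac
It holds 1 CAGAC match, on the reverse strand, and none of the other motifs. GGCGCC occurred in 3 of the 9 windows, those of the downstream Gata2 start, Gata3 and Krt18.

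Krt8 and Krt18 encode the type II and type I keratins that pair in the filaments of simple epithelia, and their signals differed little between the groups. Krt8 probe set 1420647_a_at read 532 and 540 untreated and 507 and 499.8 treated. Both treated arrays were lower and the groups did not overlap, but the log2 difference was -0.09 ± 0.13 (SE), or 0.940-fold (interval 0.770 to 1.15, limma adjusted p = 1.00). The other 2 Krt8 probe sets, whose names mark probes that can also match other transcripts, went the other way with overlapping groups. Probe set 1423691_x_at read 395 and 375 untreated and 391 and 410.3 treated (0.06 log2), and 1435989_x_at read 329 and 284 untreated and 308 and 325 treated (0.05 log2). Krt18 read 475 and 509.5 untreated and 480.1 and 461 treated, which overlapped. Its log2 difference was -0.07 ± 0.13 (SE), or 0.956-fold (interval 0.777 to 1.18). The highest end of the intervals of these 4 probe sets was 1.33-fold.

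The genes of this keratin pair are neighbours on chromosome 15, with 2 predicted genes listed between them, and start on opposite strands. Their windows are shown side by side for the steady pair. They are chr15:102004343-102004592 on the - strand for Krt8 and chr15:102027966-102028215 on the + strand for Krt18.
Krt8: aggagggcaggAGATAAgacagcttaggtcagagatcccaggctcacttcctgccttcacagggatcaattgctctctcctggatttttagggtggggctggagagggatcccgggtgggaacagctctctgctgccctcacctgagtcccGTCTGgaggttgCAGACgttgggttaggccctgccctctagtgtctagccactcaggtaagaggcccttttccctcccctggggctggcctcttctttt
Krt18: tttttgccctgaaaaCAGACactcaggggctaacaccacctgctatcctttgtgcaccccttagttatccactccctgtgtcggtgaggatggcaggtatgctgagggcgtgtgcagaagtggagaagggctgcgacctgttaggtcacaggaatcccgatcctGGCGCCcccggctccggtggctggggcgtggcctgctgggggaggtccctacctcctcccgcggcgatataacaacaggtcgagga
The Krt8 window holds 2 CAGAC matches and 1 AGATAA, 239 bases before the start. The Krt18 window holds 1 CAGAC and 1 GGCGCC, the latter 86 bases before the start.

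Krt19, a small type I keratin of the trophectoderm and primitive endoderm, was near the limit and noisy. It read 71.8 and 33.7 untreated and 92.2 and 64.9 treated. The lower treated array lay below the higher untreated array, so the groups overlapped, while each treated array was above the untreated array of equal number. The log2 difference was 0.65 ± 0.45 (SE), with an interval of 0.788-fold to 3.14-fold (limma adjusted p = 1.00). It ran from 0.11 without untreated replicate 2 to 1.20 without untreated replicate 1, and was 1.25-fold with signals raised to the limit.

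Tfap2c encodes AP-2 gamma, which acts in trophoblast, germ cells and ground-state stem cells, and all 3 of its probe sets were bright. Probe set 1436392_s_at read 1680 and 1707 untreated and 1692 and 1941 treated. The groups overlapped, and the log2 difference was 0.10 ± 0.10 (SE), with an interval of 0.915-fold to 1.25-fold. Probe set 1418147_at read 824 and 963 untreated and 861 and 999.8 treated (0.06 log2). Here replicate 2 was the brighter array in both groups. Probe set 1448977_at read 820.1 and 871 untreated and 793 and 755 treated, with no overlap and a log2 difference of -0.13 ± 0.11 (SE). The 3 probe sets therefore gave small differences of both signs, with adjusted p = 1.00 for each by limma.

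Grhl2, a grainyhead factor that drives epithelial junction genes, had the smallest unadjusted p among the 14 tested probe sets. Its probe set 1427046_at read 1049 and 918 untreated and 1153 and 1133 treated. Both treated arrays were higher, with a log2 difference of 0.22 ± 0.11 (SE), or 1.16-fold (interval 0.979 to 1.39, limma unadjusted p = 0.079, adjusted p = 1.00). It ran from 0.12 without untreated replicate 2 to 0.32 without untreated replicate 1. Its second tested probe set, 1431877_a_at, read 161 and 204 untreated and 220.2 and 248 treated, again without overlap. There the log2 difference was 0.37 ± 0.20 (SE), or 1.29-fold (interval 0.942 to 1.76, limma unadjusted p = 0.10, adjusted p = 1.00). Leaving out each array in turn moved it from 0.20 (without untreated replicate 1) to 0.53 (without untreated replicate 2), and it stayed above 0. The 2 dim probe sets overlapped between groups. Probe set 1431878_at read 11.04 and 44.9 untreated and 41.7 and 59.0 treated, and 1452643_at read 23.3 and 56.8 untreated and 9.08 and 59.1 treated. Only Krt8, Tfap2c, Grhl2 and Ascl2 had several tested probe sets. Among these, Grhl2 alone had 2 on which both treated arrays were higher than both untreated ones, and neither passed the test. Of all tested probe sets 15.9% were higher in this way, and the 2 probe sets read the same samples.

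Ascl2, an imprinted basic helix-loop-helix factor needed for the spongiotrophoblast, read 141 and 168 untreated and 123 and 128 treated on probe set 1422396_s_at. Both treated arrays were lower, and the log2 difference was -0.30 ± 0.23 (SE), with an interval of 0.569-fold to 1.16-fold (limma adjusted p = 1.00). Its other probe sets overlapped and pointed up. Probe set 1460514_s_at read 131 and 118 untreated and 146 and 125 treated (0.12 log2), and 1432018_at read 93.0 and 67.7 untreated and 81.5 and 93.2 treated (0.14 log2). No direction for Ascl2 was common to its 3 probe sets.

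**Figure D2:**
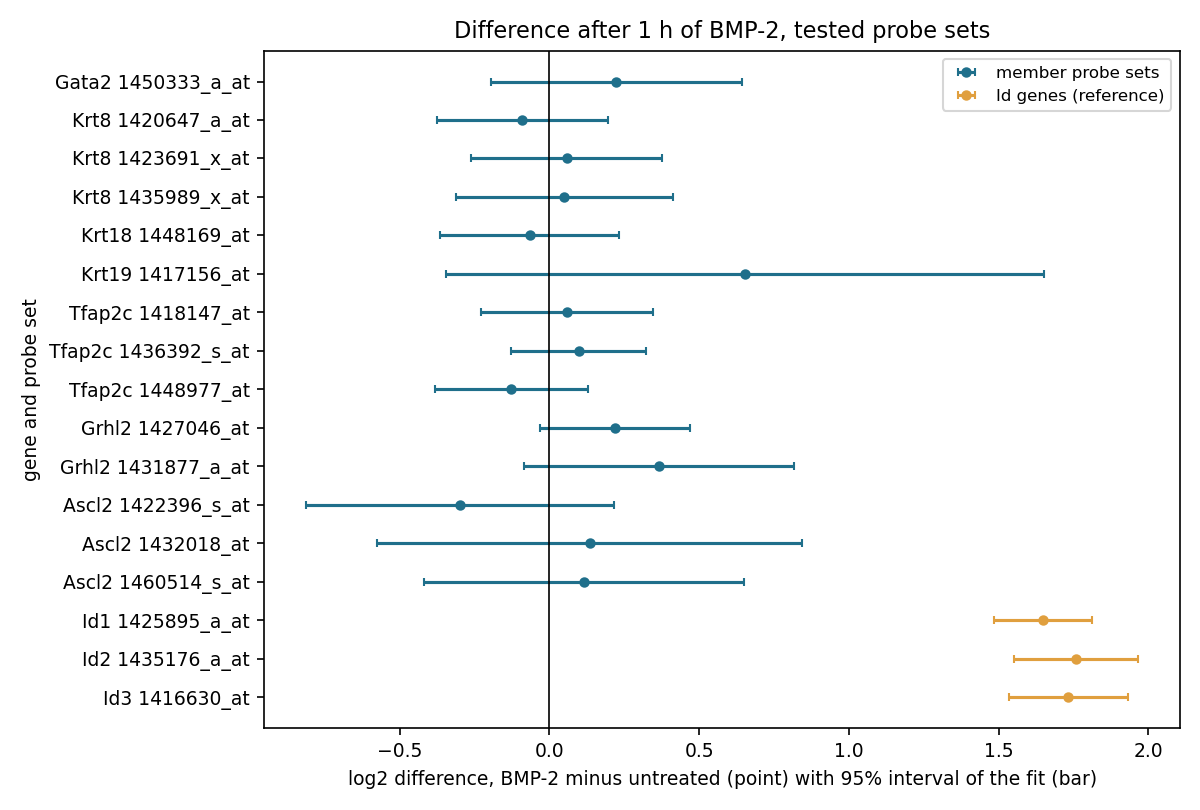
Log2 difference (BMP-2 minus untreated, points) with the 95% interval of the limma fit (bars) for the 14 tested probe sets of the set and for the brightest probe sets of Id1, Id2 and Id3. All 14 bars of the set cross 0, and the 3 Id bars lie above 1.48.

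Apart from the dimmest signals, the untreated arrays lay closer together at higher brightness. Over all probe sets the median gap between the 2 untreated arrays was 0.80 log2 for mean signals of 2 to 4 and 0.88 for 8 to 16. It was 0.44 for 32 to 64, 0.18 for 256 to 512 and 0.12 for 1024 to 2048. Among the tested probe sets of the set, the SE of the difference ran from 0.10 for the brightest Tfap2c probe set to 0.45 for Krt19. The limma fit ties the variance to signal, so a fall of the SE with brightness is partly built in. In the fit without that tie these SEs were 0.13 and 0.42. There the dim Ascl2 1422396_s_at, at 0.14, had a smaller SE than the bright Tfap2c 1418147_at, at 0.15. The gap between untreated arrays was 2.02 log2 for Grhl2 1431878_at and 1.60 for Gata2 1428816_a_at, but 0.02 for Krt8 1420647_a_at and for Tfap2c 1436392_s_at.

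**Figure D3:**
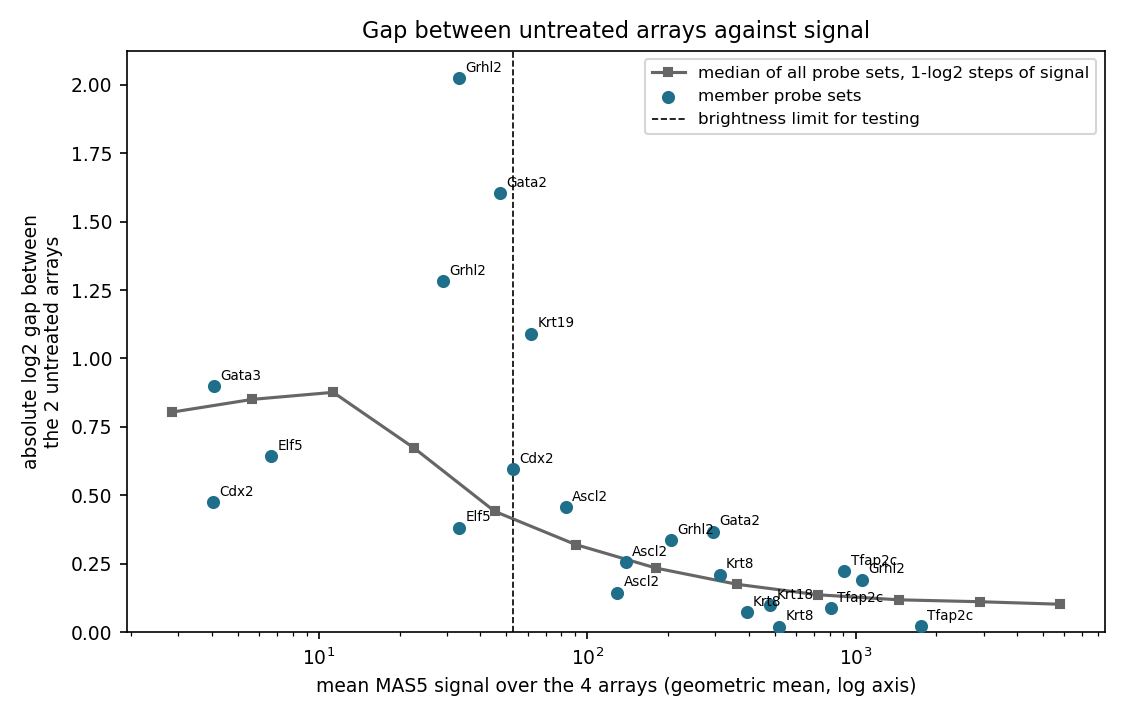
Absolute log2 gap between the 2 untreated arrays against the mean signal (log axis) for the 22 probe sets (blue) and the median over all probe sets in steps of 1 log2 of signal (grey), with the brightness limit dashed. The grey line falls from signals of 8 to 16 upward, and Grhl2, Gata2 and Krt19 probe sets near the limit lie well above it.

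Another 59 genes of the trophoblast and epithelial programme were examined as a list, and 49 had a tested probe set. None passed by limma (0 of 49, with 1 at an unadjusted p under 0.05), where 0.0185% of all tested probe sets passed and 3.07% had such an unadjusted p. On the brightest tested probe set of each gene, 34 of the differences were above 0 and 15 below, with a median of 0.04 log2. Over all tested probe sets the median was 0.01 and 52.2% were above 0. The groups did not overlap for 13 of the 49 (10 higher and 3 lower), where 28.4% of all tested probe sets showed no overlap, 15.9% higher and 12.5% lower.

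Among 11 Hippo pathway and TEAD genes, which feed into Cdx2, 10 were tested, 8 were above 0 and 2 below, and the median was 0.08 log2. Tead4, the TEAD factor required for the trophectoderm, was below the limit. Lats2, a kinase that keeps YAP out of the nucleus, read 145 and 198 untreated and 226 and 208 treated, with no overlap (0.36 log2, SE 0.22, limma adjusted p = 1.00). Of 19 trophoblast factors and products 13 were tested, 7 above 0 and 6 below, with a median of 0.0019 log2. The 13 include Esrrb, which was also among the stem cell markers above. Eomes, a T-box factor of trophoblast stem cells and the primitive streak, read 213 and 198 untreated and 237 and 251 treated (0.25 log2, SE 0.18). Hand1 read 192 and 204 untreated and 178 and 161 treated (-0.23 log2, SE 0.20), lower on both treated arrays.

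Of 29 epithelial adhesion, junction and keratin genes 26 were tested, 19 above 0 and 7 below, with a median of 0.04 log2. Grhl1, a paralogue of Grhl2, read 291 and 184 untreated and 395 and 345 treated. The groups did not overlap, and the log2 difference was 0.67 ± 0.22 (SE), or 1.60-fold (interval 1.13 to 2.24, limma unadjusted p = 0.012, adjusted p = 1.00). Untreated replicate 2, the array with the high ribosomal RNA signals, lay well below untreated replicate 1 (-0.66 log2). The third paralogue, Grhl3, named after its value was seen, read 414 and 316 untreated and 363 and 366 treated, between the untreated arrays (0.01 log2, SE 0.17). Spint1, a membrane inhibitor of serine proteases, read 1414 and 1574 untreated and 1319 and 1272 treated (-0.20 log2, SE 0.10), with no overlap. Krt7, a type II keratin of simple epithelia, read 80.4 and 87.0 untreated and 44.3 and 81.1 treated (-0.48 log2, SE 0.38), where the groups overlapped and 1 treated array was below the limit.

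**Figure D4:**
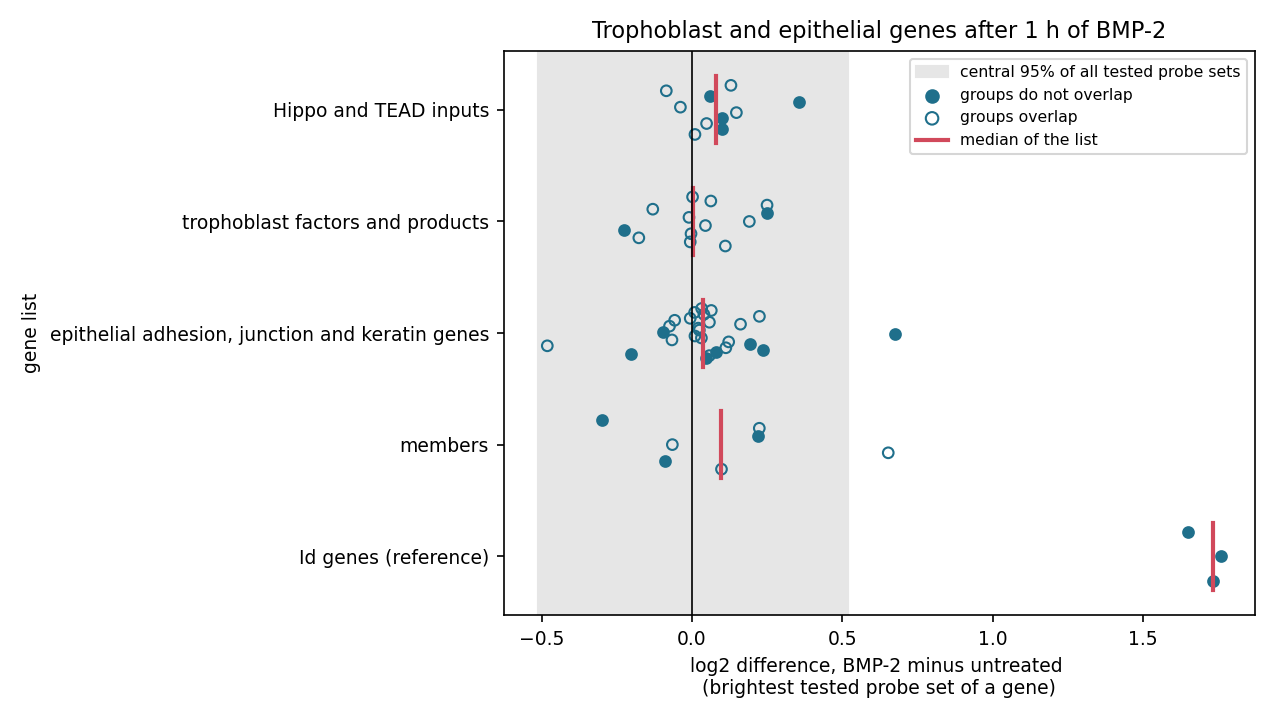
Log2 difference (BMP-2 minus untreated) of each gene on its brightest tested probe set, by list, with filled points where the groups do not overlap, red bars for list medians and grey for the central 95% of all tested probe sets (-0.51 to 0.52). Grhl1 and Krt19 lie above the grey band, and the Id genes lie at 1.65 to 1.76.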

How the data were processed

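RNA of 4 samples was labelled with biotin as cRNA and read on Affymetrix arrays, per the labels' protocols. The authors deposited a linear signal intensity for each probe set, and the submitters' processing notes name MAS5, whose version is not given in the sources used here. Groups were taken from the sample titles. Without the 64 control probe sets, log2 signals were used as they stood, without a pseudocount. Probe sets were tested where their mean log2 exceeded its 40th percentile (5.73, a signal of 53.0), which left 27022. Array medians lay within 0.21 log2, and no further normalization was applied. Dim signals are noisy on a log scale, and detection calls were not used here.

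The groups were compared in R 4.3.3 with limma 3.58.1, by lmFit and by eBayes with an intensity trend (2 residual and 7.98 prior degrees of freedom). Tests were two-sided, with Benjamini-Hochberg adjustment over all tested probe sets and a threshold of 0.05. Genes in lists were represented by their brightest tested probe set. Every probe set of the 10 genes was named, and of the list of other genes the 3 with the smallest p in each direction. The genes and lists were chosen with earlier results of these data known. Signals raised to the limit are a description added after seeing the data. On simulated data with 200 of 27022 probe sets changed in 5 runs, 60.0% of changes of 1 log2 and 90.2% of changes of 2 log2 were found, and false calls made up 5.18%. The simulated noise was independent between arrays, with a spread set by signal alone, as the fit assumes. In the real data 5 probe sets passed, so these shares are not the power or error rate of these arrays. Of the probe sets tested, 22983 have 1 gene symbol, 630 several and 3409 none. Alternatives were other normalizations, a pseudocount of 25.4, other filters, a variance without trend, a block for the replicate number and leaving out each array. Promoter windows came from RefSeq (GRCm38.p6), and 7 of the 10 genes matched. The comparison of protein sequences that had been planned was not made, and proteins were not analysed here.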

Additional observations from a re-analysis of the deposited data

How the results depend on the processing

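None of the probe sets of the 10 genes, and none of the 49 other genes, passed in any alternative run that tested it. The 8 dim probe sets, with all those of Cdx2, Gata3 and Elf5, were tested only in the run without a filter. Those of Krt19 and Ascl2 were not tested with the filter at the 60th percentile. In the run without the intensity trend no probe set of the array passed (0 of 27022), so the Id genes did not pass there either. Of the 14 tested probe sets, the 14 kept their sign under quantile normalization, both median centrings, the pseudocount, no filter, no intensity trend, the replicate block and signals raised to the limit, the last and the second centring added after seeing the data. Signs turned only when 1 array was left out. Without it, the log2 difference ran from -0.055 to 0.16 for Krt8 1435989_x_at, -0.054 to 0.17 for Tfap2c 1418147_at, -0.0013 to 0.20 for Tfap2c 1436392_s_at and -0.094 to 0.36 for Ascl2 1432018_at. It kept its sign but ran from -0.12 to -0.015 for Krt18, 0.021 to 0.095 for Krt8 1423691_x_at, -0.17 to -0.084 for Tfap2c 1448977_at, -0.43 to -0.17 for Ascl2 1422396_s_at and 0.0032 to 0.23 for Ascl2 1460514_s_at. The count over all probe sets was less steady. It was 5 (5 higher, 0 lower) and became 116 (72 higher, 44 lower) with each array centred on its median, 17 (12 higher, 5 lower) with the median over tested probe sets, 8 with the filter at the 60th percentile, 0 without the intensity trend (1023 at an unadjusted p under 0.05) and 16 to 141 without 1 array (58 higher and 35 lower without treated replicate 1, 35 higher and 106 lower without treated replicate 2, 27 higher and 11 lower without untreated replicate 1, 14 higher and 2 lower without untreated replicate 2), where the lone array of a group is assumed to vary like the others. With the replicate number as a block 11 passed, and the smallest adjusted p among the 14 was 0.94. Deviations of equal-numbered arrays correlated at 0.15 over probe sets. Array medians were 82.4 (untreated) and 81.8 (BMP-2) for replicate 1, and 94.6 (untreated) and 94.9 (BMP-2) for replicate 2. Equal-numbered arrays were thus alike in median brightness, and with only 2 pairs it was not tested what else they share. The cause of the changes in the count was not tested. Signals near or under the limit leave little to be read for Cdx2, Gata3 and Elf5. Why these signals were low was not tested.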
